A study of Mus musculus with 24 samples.

Results

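Transcript levels of 48 genes of the antioxidant defence of mouse lung were followed. They took in the sensor and activator of the NRF2 pathway and its target genes. Also among them were peroxiredoxins, superoxide dismutases, glutathione peroxidases, glutathione transferases and enzymes of the pathways that supply NADPH. The genes were chosen by name, with earlier results of these data known. All 48 were among the 26253 genes of the deposited count table, and all 48 were among the 16153 that passed the filter on low counts, so none was lost. RNA came from lung of mice kept on 1 of 2 diets, a control diet and one enriched in the omega-3 fatty acid docosahexaenoic acid (DHA), and then exposed to ozone, an oxidant air pollutant, or to filtered air. The 4 groups were control diet with filtered air, control diet with ozone, DHA diet with filtered air and DHA diet with ozone, with 6 libraries each and 24 in all. The labels name no transgene or drug, and give no strain, sex, age, ozone dose or time after exposure. Whether each library is a different mouse is not stated, and p-values therefore refer to variation among libraries, which may be technical.

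NRF2, the transcription factor encoded by Nfe2l2, is bound by KEAP1 and handed over for degradation until oxidants or electrophiles modify cysteines of KEAP1. NRF2 then accumulates in the nucleus, pairs with small MAF proteins and binds antioxidant response elements near genes for glutathione synthesis, thioredoxin reduction, NADPH supply and the detoxification of quinones, haem and carbonyls. In the lung these enzymes act in the airway epithelium, in alveolar cells and in the fluid that lines the airways, where inhaled ozone reacts first.

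Library totals ran from 18053493 to 26225630 counts, and the 48 genes together took 0.906% to 1.34% of the counts of a library. The lowest count of any of them in any library was 61, for Slc7a11. The tissue label fitted its markers: Scgb1a1, a marker of club cells, made up 5.51% to 12.3% of all counts, and 4 markers of alveolar type 2 cells, among them the surfactant gene Sftpc, summed to 18840 to 32219 CPM. CPM is a gene's count divided by the library's TMM-scaled total and set to a common scale. Levels below are medians, with the lowest and highest of the 6 libraries in parentheses, and a pair of folds gives the control diet first and the DHA diet second. The haemoglobin genes Hba-a2, Hbb-bs and Hbb-bt were listed at 0 in all 24 libraries. A single library stood apart for the genes described here, DHA-diet ozone library 2, in which 29 of the 48 had their highest level of all 24 libraries. Among all genes tested library 2 was the highest of 24 for 4.22%, and DHA-diet ozone library 1 for 14.9%. That library 1 also had the lowest Scgb1a1 share, 5.51%. What changed on the DHA diet without library 2 is described after the results by role.

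The stretches around annotated start sites that hold the core letters of the antioxidant response element are shown first, because NRF2 binds such elements near its target genes. The letters TGACNNNGC were searched on both strands of a window from 250 bases before to 50 bases after each annotated start (RefSeq, GRCm38.p6, an older assembly than that of the deposited counts). Some genes have more than 1 annotated start, and so more than 1 window. Of the 48 genes 41 had a window, and 13 of those 41 (31.7%) held the letters, against 14% of the 27025 genes with a window. The letters lie after the start in Srxn1 (position 279 of the window) and in Pgd (position 254, in the window of the more downstream of its annotated starts), span the start in Me1 and lie before it in the others. No window was used for Gclc, Hmox1, Gsr, Sod3, Prdx6, Gsta4 and Abcc1. The 14 sites of these 13 genes follow, each with 10 bases on either side, turned so that the letters read TGACNNNGC in capitals:
Nfe2l2: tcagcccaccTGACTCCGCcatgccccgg
Gclm: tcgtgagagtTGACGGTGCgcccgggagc
Txnrd1: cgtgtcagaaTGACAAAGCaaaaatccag
Srxn1: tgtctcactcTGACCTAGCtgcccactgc
G6pdx: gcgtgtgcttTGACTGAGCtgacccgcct
Pgd: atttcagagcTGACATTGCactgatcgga
Me1: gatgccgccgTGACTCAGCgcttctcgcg
Sod1: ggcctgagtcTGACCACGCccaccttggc
Prdx1: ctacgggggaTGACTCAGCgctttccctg
Gsta3: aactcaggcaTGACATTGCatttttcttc
Gstm5: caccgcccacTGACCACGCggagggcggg
Mgst1: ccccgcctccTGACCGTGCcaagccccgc
Ugdh first site: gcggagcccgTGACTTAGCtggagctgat
Ugdh second site: ccgaactgtaTGACCACGCcccttgagga

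In GRCm38.p6 these stretches lie at chr2:75704885-75704913 on the minus strand for Nfe2l2, chr3:122245413-122245441 on the minus strand for Gclm, chr10:82859104-82859132 on the minus strand for Txnrd1, chr2:152105542-152105570 on the minus strand for Srxn1 and chrX:74428919-74428947 on the plus strand for G6pdx. Those of Pgd, Me1 and Sod1 lie at chr4:149166061-149166089 on the minus strand, chr9:86695902-86695930 on the minus strand and chr16:90220696-90220724 on the minus strand. Prdx1, Gsta3, Gstm5 and Mgst1 have theirs at chr4:116685456-116685484 on the minus strand, chr1:21240454-21240482 on the plus strand, chr3:107895802-107895830 on the plus strand and chr6:138140461-138140489 on the minus strand, and Ugdh at chr5:65435956-65435984 on the minus strand and chr5:65435918-65435946 on the plus strand. The sites of Me1 and Prdx1 have the same 9 letters, TGACTCAGC, and are the 2 of 14 that overlap the letters of an AP-1 element (TGACTCA or TGAGTCA). Their whole windows are given because both genes rose with ozone on the control diet:
Me1: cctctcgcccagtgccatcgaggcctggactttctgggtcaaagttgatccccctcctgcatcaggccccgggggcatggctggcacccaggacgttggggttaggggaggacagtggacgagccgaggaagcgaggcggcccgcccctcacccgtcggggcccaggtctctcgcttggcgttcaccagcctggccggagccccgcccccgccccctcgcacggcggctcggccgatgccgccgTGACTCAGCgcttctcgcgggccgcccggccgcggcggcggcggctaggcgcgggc
Prdx1: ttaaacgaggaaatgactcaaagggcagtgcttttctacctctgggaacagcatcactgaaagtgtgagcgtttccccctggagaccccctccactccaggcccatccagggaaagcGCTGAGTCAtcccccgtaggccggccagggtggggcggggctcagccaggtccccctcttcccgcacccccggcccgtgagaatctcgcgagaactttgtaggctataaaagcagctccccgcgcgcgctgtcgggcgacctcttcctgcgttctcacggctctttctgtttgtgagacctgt
The window of Me1 covers chr9:86695865-86696164 and is written on the minus strand, and that of Prdx1 covers chr4:116685349-116685648 and is written on the plus strand, where the element reads in reverse. Of the 13 genes with the letters 9 were called higher with ozone on at least 1 diet, and of the 28 with a window and no match 16 were. A match shows the letters and not a bound site.

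On the control diet, ozone raised 21 of the 48 genes and lowered 0 at an adjusted p under 0.05 (edgeR quasi-likelihood test, adjusted over all 16153 genes). Among all genes tested 8.93% were higher and 7.87% lower. The called genes rose 1.09 to 1.43-fold. The median log2 fold change of the 48 was 0.25, against −0.0055 for all genes, and 45 of the 48 were above 0. In 12 of the 48 all 6 ozone libraries lay above all 6 air libraries, as they did for 4.5% of all genes. On the DHA diet ozone raised 22 of the 48 and lowered 0, where 12.7% of all genes were higher and 11% lower. The called genes rose 1.09 to 1.53-fold, the median log2 fold change of the 48 was 0.21 against −0.0112 for all genes, and in 8 of the 48 all ozone libraries lay above all air libraries (5.14% of all genes).

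These 2 comparisons share no library. They had 15 called genes in common, which is 71.4% of the control-diet calls and 68.2% of the DHA-diet calls. The same shares over all genes tested were not computed, so whether the 48 differ from other called genes in this is not known. The 15 were Txn1, Gsr, G6pdx, Taldo1, Tkt, Me1, Sod2, Gpx1, Gpx2, Prdx3, Prdx6, Gsto1, Mgst3, Esd and Ugdh. Nfe2l2, Prdx1, Prdx4, Gsta3, Gstm4 and Gstt1 were called on the control diet alone, and Hmox1, Srxn1, Sod1, Gpx3, Gstm5, Gstp1 and Blvrb on the DHA diet alone. The difference in ozone response between the diets did not pass its own test for any of these 13 (interaction, smallest adjusted p of the 48 = 0.85). In Gsr, Taldo1, Prdx3, Mgst3 and Esd all ozone libraries lay above all air libraries on both diets. The share of all genes that did so on both diets was not computed.

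**Figure D1:**
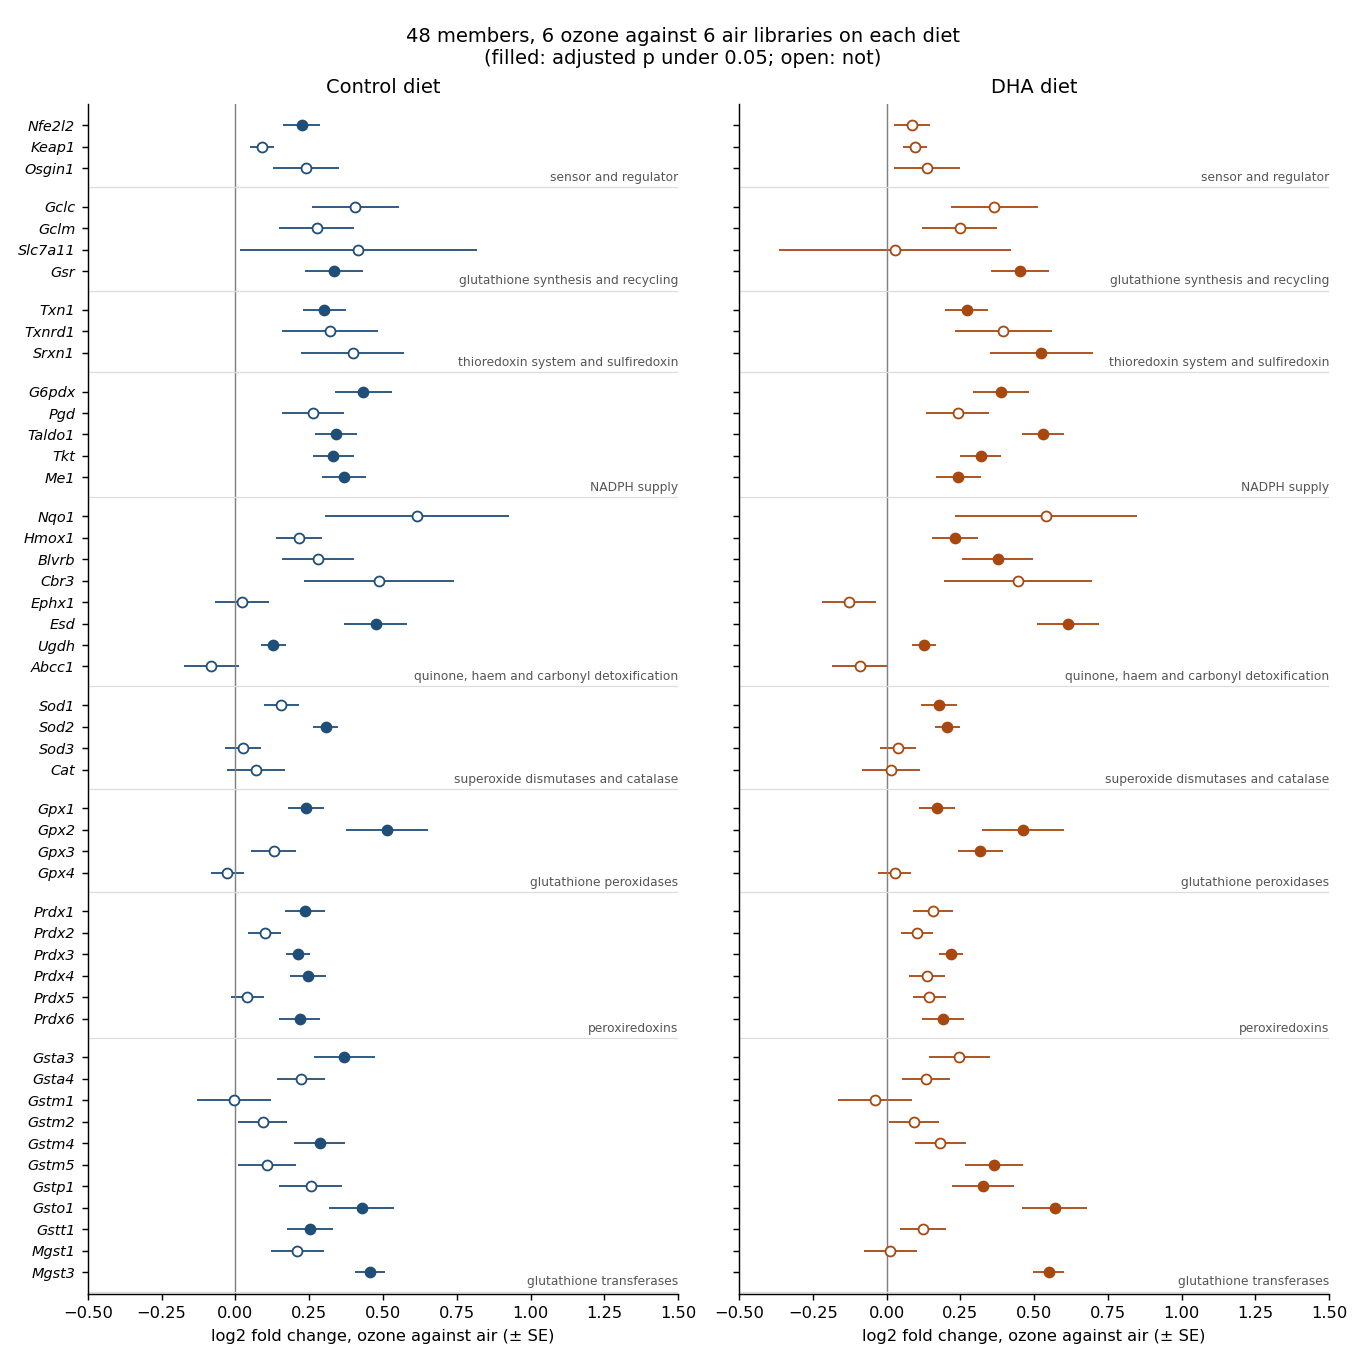
Log2 fold change of ozone against air (x axis, point ± SE) for the 48 genes by role, on the control diet (left) and the DHA diet (right), 6 against 6 libraries each. Filled points passed an adjusted p of 0.05: 21 on the control diet and 22 on the DHA diet, all to the right of 0.

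Of the sensor and its factor, Nfe2l2 itself rose on the control diet and Keap1 passed the test on neither. Nfe2l2 stood at a median of 161 CPM (153 to 179) in control-diet air and 194 CPM (177 to 199) in control-diet ozone libraries, and of 179 CPM (169 to 218) in DHA-diet air and 192 CPM (168 to 227) in DHA-diet ozone libraries. The control-diet libraries overlapped little, with 1 air library above the lowest ozone library, and the change was 1.17-fold (log2 fold change 0.22, SE 0.062, adjusted p = 0.0137). On the DHA diet the groups overlapped, with 1.06-fold (log2 fold change 0.086, SE 0.062, adjusted p = 0.335). Keap1, which encodes the sensor, gave 1.06-fold (adjusted p = 0.136) on the control diet and 1.07-fold (adjusted p = 0.0889) on the DHA diet. Osgin1, a target that encodes an oxidative stress-induced growth inhibitor, gave 1.18-fold (adjusted p = 0.147) and 1.10-fold (adjusted p = 0.399). The Nfe2l2 call was lost without control-diet air libraries 1 to 3 (adjusted p = 0.172).

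Of the 4 genes of glutathione synthesis and recycling, 1 rose on each diet, Gsr, which encodes the reductase that returns oxidised glutathione to its reduced form. Gsr had a control-diet median of 91.9 CPM (77.7 to 101) with air and 113 CPM (103 to 128) with ozone, and a DHA-diet median of 84.7 CPM (77.2 to 89.6) with air and 107 CPM (97.8 to 169) with ozone. No ozone library fell within the range of the air libraries on either diet. Gsr rose 1.26-fold (log2 fold change 0.33, SE 0.10, adjusted p = 0.0198) on the control diet and 1.37-fold (log2 fold change 0.45, SE 0.10, adjusted p = 0.0015) on the DHA diet. Its control-diet call ended when control-diet air library 4 or 6 was left out (highest adjusted p = 0.0572), or libraries 4 to 6 together (adjusted p = 0.156). Gclc and Gclm, the catalytic and modifier subunits of the rate-limiting enzyme of glutathione synthesis, had folds of the same order and did not pass. The level of Gclc was 259 CPM (218 to 311) in control-diet air, 335 CPM (325 to 400.1) in control-diet ozone, 316 CPM (246 to 345) in DHA-diet air and 360.0 CPM (276 to 649) in DHA-diet ozone libraries. All 6 control-diet ozone libraries lay above the air libraries for Gclc, yet the fitted change, 1.33-fold (log2 fold change 0.41, SE 0.15, adjusted p = 0.0579), missed the threshold. Gclc on the DHA diet gave 1.29-fold (adjusted p = 0.0717), and Gclm gave 1.21-fold (adjusted p = 0.142) and 1.19-fold (adjusted p = 0.164). Slc7a11, the cystine importer, had the lowest count and the widest spread of the 48, with 4.12 CPM (2.71 to 10.4) in control-diet air and 5.09 CPM (2.88 to 22.3) in DHA-diet ozone libraries. It gave 1.33-fold (adjusted p = 0.522) on the control diet and 1.02-fold (adjusted p = 0.968) on the DHA diet.

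In the thioredoxin system, Txn1, which encodes cytosolic thioredoxin, rose on both diets. Txn1 stood at a median of 294 CPM (262 to 355) in control-diet air and 367 CPM (351 to 428) in control-diet ozone libraries, and of 322 CPM (277 to 358) in DHA-diet air and 376 CPM (364 to 458) in DHA-diet ozone libraries. A single air library of the control diet reached above the lowest ozone library, and on the DHA diet the groups did not overlap. Txn1 rose 1.23-fold (log2 fold change 0.30, SE 0.073, adjusted p = 0.00543) on the control diet and 1.21-fold (log2 fold change 0.27, SE 0.073, adjusted p = 0.00769) on the DHA diet, and its control-diet call was lost without control-diet air libraries 1 to 3 (adjusted p = 0.171). Srxn1, the sulfiredoxin that repairs overoxidised peroxiredoxins, was called on the DHA diet. Srxn1 had a control-diet median of 41.1 CPM (34.6 to 50.9) with air and 56 CPM (49.3 to 61.8) with ozone, and a DHA-diet median of 47.9 CPM (30.6 to 52.6) with air and 55.1 CPM (40.8 to 122) with ozone. Among DHA-diet libraries 5 of 6 ozone libraries lay above all air libraries, library 2 highest. The change of 1.44-fold (log2 fold change 0.52, SE 0.17, adjusted p = 0.029) became 1.20-fold (adjusted p = 0.133) without that library. The call was also lost without DHA-diet air library 2. On the control diet Srxn1 gave 1.32-fold (adjusted p = 0.121). Txnrd1, the thioredoxin reductase, gave 1.25-fold (adjusted p = 0.187) and 1.32-fold (adjusted p = 0.0795).

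The enzymes that supply NADPH, the reducing agent of both the glutathione and the thioredoxin cycle, rose in 4 of 5 on each diet. G6pdx encodes the first enzyme of the pentose phosphate pathway. Its level was 39.2 CPM (32.4 to 46) in control-diet air, 51.4 CPM (47.4 to 60.9) in control-diet ozone, 41.8 CPM (37.5 to 48.6) in DHA-diet air and 53.9 CPM (42.9 to 68.8) in DHA-diet ozone libraries. The control-diet groups did not overlap, and on the DHA diet 1 ozone library lay below the highest air library. It rose 1.35-fold (log2 fold change 0.43, SE 0.10, adjusted p = 0.00263) and 1.31-fold (log2 fold change 0.39, SE 0.095, adjusted p = 0.00386). Taldo1 encodes transaldolase of the same pathway. Taldo1 stood at a median of 189 CPM (175 to 206) in control-diet air and 231 CPM (226 to 278) in control-diet ozone libraries, and of 182 CPM (151 to 188) in DHA-diet air and 245 CPM (221 to 319) in DHA-diet ozone libraries. The groups did not overlap on either diet, and Taldo1 rose 1.27-fold (log2 fold change 0.34, SE 0.071, adjusted p = 0.00161) and 1.44-fold (log2 fold change 0.53, SE 0.071, adjusted p = 1.20e-05). Tkt encodes transketolase, which works beside transaldolase. Tkt had a control-diet median of 161 CPM (145 to 179.7) with air and 203 CPM (193 to 221) with ozone, and a DHA-diet median of 166 CPM (144 to 178) with air and 208 CPM (161 to 234) with ozone. The control-diet groups were apart and 1 DHA-diet ozone library fell among the air libraries. Tkt rose 1.26-fold (log2 fold change 0.33, SE 0.069, adjusted p = 0.0017) and 1.25-fold (log2 fold change 0.32, SE 0.069, adjusted p = 0.00148). Me1 encodes the cytosolic malic enzyme. Its level was 105 CPM (92.7 to 114) in control-diet air, 133 CPM (126 to 144) in control-diet ozone, 111 CPM (94.1 to 123) in DHA-diet air and 125 CPM (107 to 150.1) in DHA-diet ozone libraries. The control-diet groups were apart, and 3 DHA-diet ozone libraries fell below the highest air library. Me1 rose 1.29-fold (log2 fold change 0.37, SE 0.075, adjusted p = 0.0014) and 1.18-fold (log2 fold change 0.24, SE 0.075, adjusted p = 0.0187). Pgd, whose product follows that of G6pdx in the pathway, gave 1.20-fold (adjusted p = 0.09) and 1.18-fold (adjusted p = 0.101). The control-diet call of G6pdx was lost without control-diet air libraries 4 to 6 (adjusted p = 0.061), and the DHA-diet call of Me1 without DHA-diet air library 5, DHA-diet ozone library 2 or library 6 (highest adjusted p = 0.0633).

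**Figure D2:**
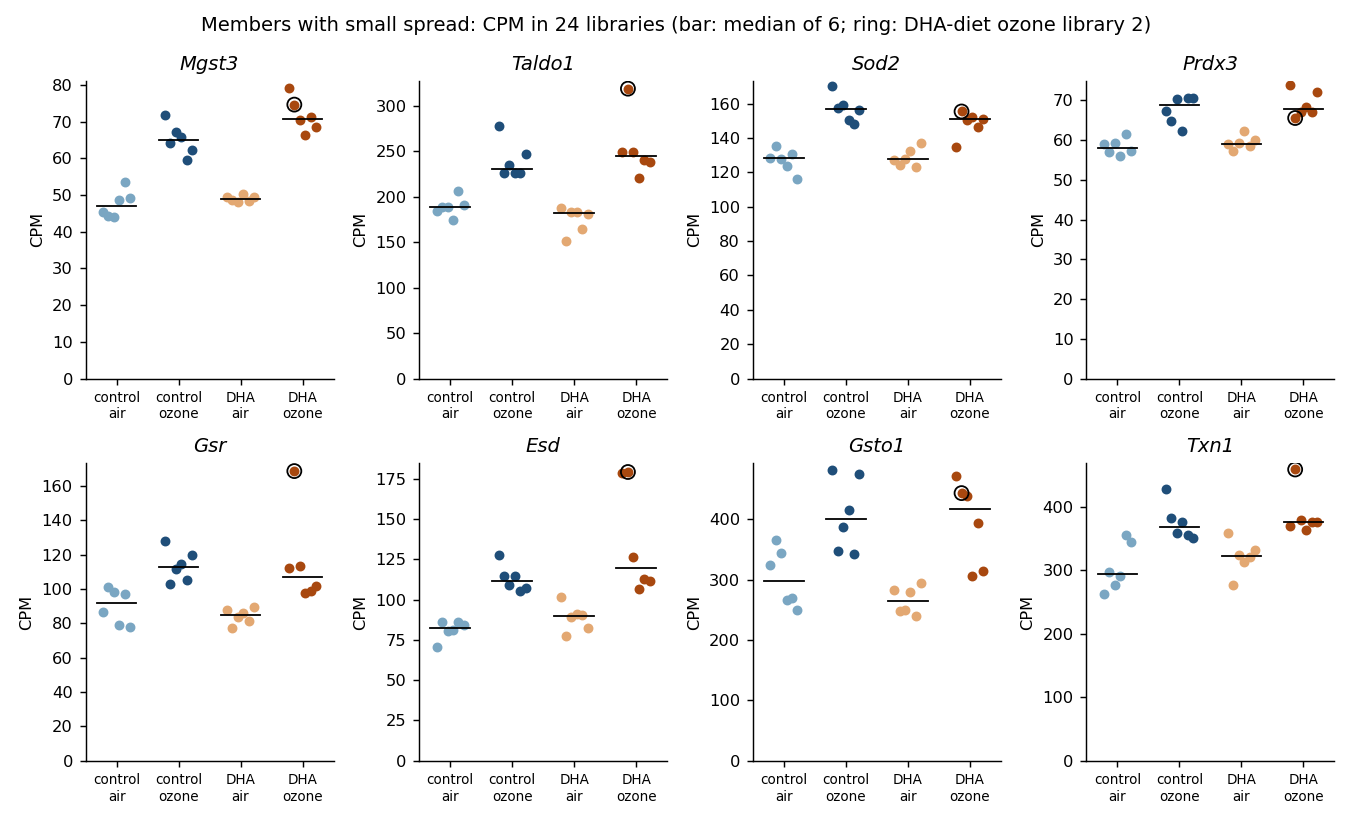
Level in CPM (y axis, from 0) of 8 genes that rose with ozone on both diets, by diet and exposure, with 1 point per library, the median of 6 as a bar and a ring around DHA-diet ozone library 2. In Mgst3, Taldo1, Prdx3, Gsr and Esd every ozone point lies above every air point of the same diet.

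Among the 8 genes of quinone, haem and carbonyl detoxification, 2 rose on the control diet and 4 on the DHA diet. Esd encodes S-formylglutathione hydrolase, which completes the glutathione-dependent removal of formaldehyde. Esd stood at a median of 82.5 CPM (70.4 to 86.3) in control-diet air and 112 CPM (105 to 128) in control-diet ozone libraries, and of 89.9 CPM (77.7 to 102) in DHA-diet air and 119.9 CPM (107 to 179) in DHA-diet ozone libraries. The groups did not overlap, and Esd rose 1.39-fold (log2 fold change 0.47, SE 0.11, adjusted p = 0.00283) and 1.53-fold (log2 fold change 0.61, SE 0.10, adjusted p = 0.000151). Ugdh, which makes the UDP-glucuronate used to conjugate quinones, rose 1.09-fold (adjusted p = 0.0339) and 1.09-fold (adjusted p = 0.0272). Its library spread was also the smallest of the 48, with a within-group SD of 0.060 on the log2 scale. Hmox1, the inducible haem oxygenase, was called on the DHA diet. Hmox1 had a control-diet median of 43.1 CPM (38.8 to 50.2) with air and 50.2 CPM (45.1 to 57.5) with ozone, and a DHA-diet median of 44.8 CPM (38 to 51.6) with air and 51.8 CPM (45.2 to 63) with ozone. All groups overlapped, and Hmox1 changed 1.16-fold (log2 fold change 0.21, SE 0.078, adjusted p = 0.0571) on the control diet and 1.18-fold (log2 fold change 0.23, SE 0.077, adjusted p = 0.0293) on the DHA diet. Blvrb, the biliverdin reductase, rose on the DHA diet (1.30-fold, adjusted p = 0.0231) and gave 1.21-fold (adjusted p = 0.113) on the control diet.

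The DHA-diet calls of Hmox1 and Blvrb were lost without DHA-diet ozone library 2 (1.13-fold, adjusted p = 0.092, and 1.17-fold, adjusted p = 0.0894), and also when single other libraries were left out: DHA-diet air library 4, 5 or 6 or DHA-diet ozone library 1 for Hmox1, and DHA-diet air library 2 or 3 for Blvrb. Ugdh lost its call when any 1 of 8 libraries was left out on the control diet (highest adjusted p = 0.103) and any of 5 on the DHA diet (highest adjusted p = 0.0689). Nqo1, the quinone reductase most often read as the marker of NRF2 activity, and Cbr3, a carbonyl reductase, were not called although their folds were among the largest. The level of Nqo1 was 26.3 CPM (14.3 to 36.2) in control-diet air, 38.5 CPM (31.8 to 46.8) in control-diet ozone, 28.6 CPM (15.2 to 47.5) in DHA-diet air and 33.3 CPM (16.6 to 104) in DHA-diet ozone libraries. Both diets had air libraries above ozone libraries, and the changes were 1.53-fold (log2 fold change 0.61, SE 0.31, adjusted p = 0.183) and 1.45-fold (log2 fold change 0.54, SE 0.31, adjusted p = 0.215). Cbr3 gave 1.40-fold (adjusted p = 0.196) and 1.36-fold (adjusted p = 0.208). Ephx1, the microsomal epoxide hydrolase, gave 1.02-fold (adjusted p = 0.895) and 0.915-fold (adjusted p = 0.332), and Abcc1, an exporter of glutathione conjugates, gave 0.945-fold (adjusted p = 0.606) and 0.939-fold (adjusted p = 0.528).

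**Figure D3:**
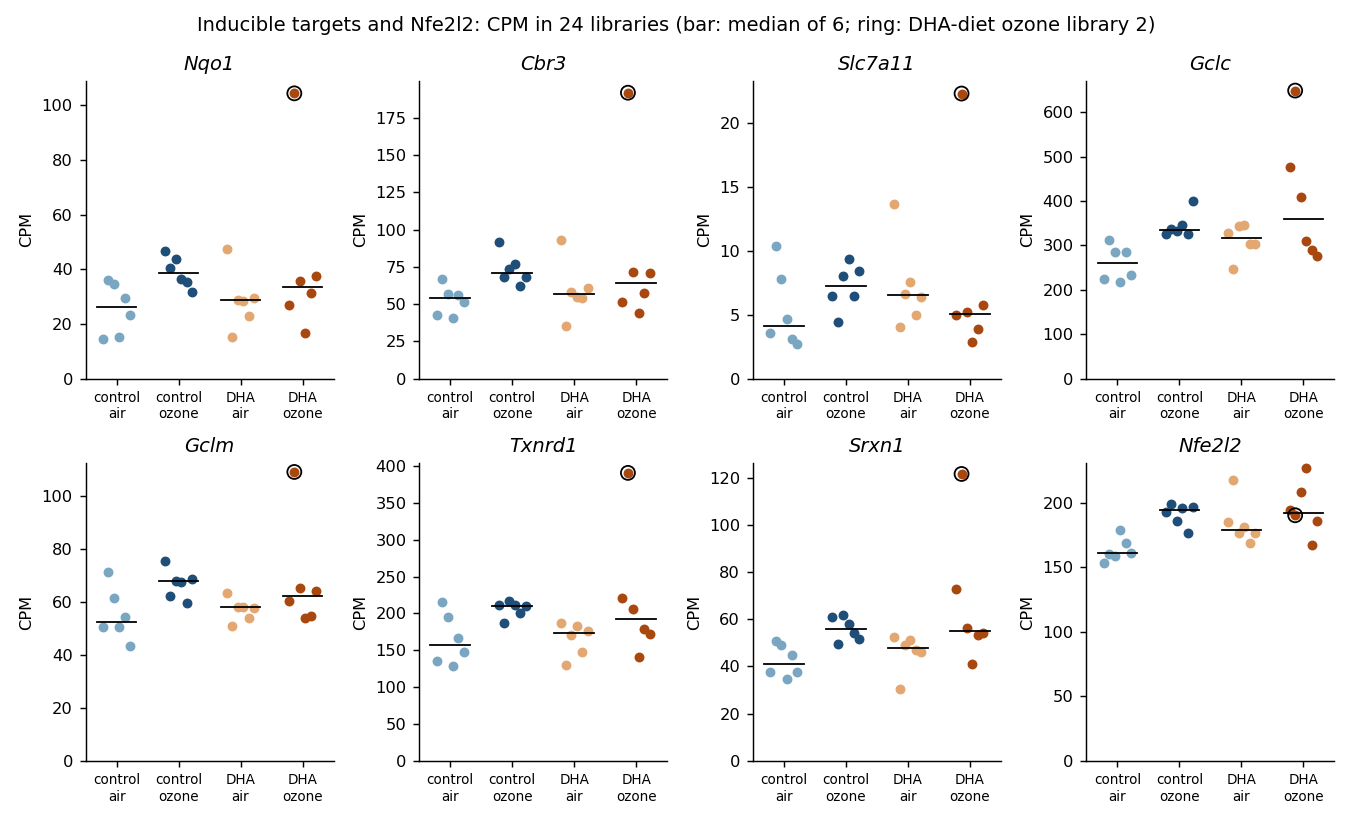
Level in CPM (y axis, from 0) of 7 inducible NRF2 targets and Nfe2l2, by diet and exposure, with 1 point per library, the median of 6 as a bar and a ring around DHA-diet ozone library 2. The ringed library is the highest of 24 for the 7 targets and lies near the DHA-diet ozone median for Nfe2l2.

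Of the enzymes that remove superoxide and hydrogen peroxide, mitochondrial Sod2 rose on both diets. Sod2 stood at a median of 128 CPM (116 to 135) in control-diet air and 157 CPM (148 to 170.4) in control-diet ozone libraries, and of 128 CPM (123 to 137) in DHA-diet air and 151 CPM (135 to 155) in DHA-diet ozone libraries. The control-diet groups did not overlap, and on the DHA diet 1 air library reached into the ozone range. Sod2 rose 1.24-fold (log2 fold change 0.31, SE 0.043, adjusted p = 4.28e-05) and 1.15-fold (log2 fold change 0.21, SE 0.043, adjusted p = 0.00109). Cytosolic Sod1 rose on the DHA diet, 1.13-fold (adjusted p = 0.0312), against 1.11-fold (adjusted p = 0.0738) on the control diet, and its call was lost when any 1 of 8 libraries was left out (highest adjusted p = 0.085). Extracellular Sod3 gave 1.02-fold (adjusted p = 0.82) and 1.03-fold (adjusted p = 0.686), and catalase (Cat) 1.05-fold (adjusted p = 0.684) and 1.01-fold (adjusted p = 0.926).

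Among the 4 glutathione peroxidases, which reduce peroxides with glutathione, 2 rose on the control diet and 3 on the DHA diet. Gpx1 encodes the widespread cytosolic form. Gpx1 had a control-diet median of 413 CPM (364 to 492) with air and 486 CPM (464 to 553) with ozone, and a DHA-diet median of 462 CPM (451 to 510.0) with air and 523 CPM (515 to 547) with ozone. On the control diet 1 air library reached into the ozone range, and on the DHA diet the groups did not overlap. It rose 1.18-fold (log2 fold change 0.24, SE 0.061, adjusted p = 0.00749) and 1.13-fold (log2 fold change 0.17, SE 0.061, adjusted p = 0.041). Gpx2 encodes the epithelial form. Its level was 66.8 CPM (52.8 to 89.6) in control-diet air, 94.5 CPM (85.4 to 116) in control-diet ozone, 69.8 CPM (47.2 to 78.8) in DHA-diet air and 83.3 CPM (71.3 to 138) in DHA-diet ozone libraries. The groups overlapped on both diets. Gpx2 rose 1.43-fold (log2 fold change 0.51, SE 0.14, adjusted p = 0.0115), and 1.38-fold (log2 fold change 0.46, SE 0.14, adjusted p = 0.016) on the DHA diet. Without DHA-diet ozone library 2 the latter became 1.23-fold (adjusted p = 0.0626). Gpx3 encodes the secreted form. Gpx3 stood at a median of 829 CPM (794 to 921) in control-diet air and 925 CPM (868 to 1011) in control-diet ozone libraries, and of 869 CPM (785 to 972) in DHA-diet air and 1083 CPM (848 to 1343) in DHA-diet ozone libraries. On the DHA diet 5 of 6 ozone libraries lay above all air libraries. It rose there, 1.25-fold (log2 fold change 0.32, SE 0.076, adjusted p = 0.00349), where without library 2 the change was 1.30-fold (adjusted p = 0.000295), and gave 1.09-fold (adjusted p = 0.258) on the control diet. Gpx4, which reduces lipid hydroperoxides in membranes, gave 0.981-fold (adjusted p = 0.787) and 1.02-fold (adjusted p = 0.765). The control-diet call of Gpx1 was lost without control-diet air libraries 1 to 3 (adjusted p = 0.345) and that of Gpx2 without libraries 4 to 6 (adjusted p = 0.105), and the DHA-diet call of Gpx1 when any 1 of 14 libraries was left out (highest adjusted p = 0.0809).

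The 6 peroxiredoxins, thiol peroxidases kept reduced mostly by thioredoxin, rose in 4 cases on the control diet and in 2 on the DHA diet. Mitochondrial Prdx3 was called on both. Prdx3 had a control-diet median of 58.1 CPM (55.9 to 61.6) with air and 68.7 CPM (62.3 to 70.7) with ozone, and a DHA-diet median of 59.1 CPM (57.4 to 62.3) with air and 67.8 CPM (65.6 to 74) with ozone. The groups did not overlap on either diet, and Prdx3 rose 1.16-fold (log2 fold change 0.21, SE 0.041, adjusted p = 0.000814) and 1.16-fold (log2 fold change 0.22, SE 0.041, adjusted p = 0.000402). Prdx4, the form of the endoplasmic reticulum, rose on the control diet. Its level was 36.1 CPM (30.2 to 38.2) in control-diet air, 42 CPM (38.7 to 43.5) in control-diet ozone, 38.3 CPM (35.8 to 41.2) in DHA-diet air and 41.7 CPM (39.2 to 47.4) in DHA-diet ozone libraries. The groups were apart on the control diet and overlapped on the DHA diet. Its change was 1.19-fold (log2 fold change 0.25, SE 0.061, adjusted p = 0.00653) on the control diet and 1.10-fold (log2 fold change 0.14, SE 0.061, adjusted p = 0.101) on the DHA diet, and the former was lost without control-diet air libraries 1 to 3 (adjusted p = 0.172). Cytosolic Prdx1 rose 1.18-fold (adjusted p = 0.0174) on the control diet and gave 1.12-fold (adjusted p = 0.0928) on the DHA diet. Prdx6, which also acts as a phospholipase in surfactant turnover, rose 1.16-fold (adjusted p = 0.033) and 1.14-fold (adjusted p = 0.0468). Prdx2 gave 1.07-fold (adjusted p = 0.228) and 1.07-fold (adjusted p = 0.176), and Prdx5 1.03-fold (adjusted p = 0.665) and 1.11-fold (adjusted p = 0.0554). The Prdx1 call was lost without control-diet air library 1 (adjusted p = 0.0545), and that of Prdx6 when any 1 of 7 libraries was left out on the control diet and any of 12 on the DHA diet (highest adjusted p = 0.0822 and 0.158).

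Among the 11 glutathione transferases, which join glutathione to electrophiles, 5 rose on the control diet and 4 on the DHA diet. Mgst3, a membrane-bound transferase and peroxidase, gave the smallest adjusted p of the 48 in both comparisons. Mgst3 stood at a median of 47 CPM (44 to 53.5) in control-diet air and 65 CPM (59.6 to 71.7) in control-diet ozone libraries, and of 49 CPM (48 to 50.3) in DHA-diet air and 70.8 CPM (66.3 to 79.3) in DHA-diet ozone libraries. Ozone and air libraries did not overlap on either diet. Mgst3 rose 1.37-fold (log2 fold change 0.46, SE 0.052, adjusted p = 6.62e-06) and 1.46-fold (log2 fold change 0.55, SE 0.051, adjusted p = 1.89e-07). Gsto1 encodes an omega-class enzyme that also reduces dehydroascorbate. Gsto1 had a control-diet median of 297 CPM (249 to 365) with air and 401 CPM (342 to 481) with ozone, and a DHA-diet median of 265 CPM (240.0 to 294) with air and 417 CPM (306 to 471) with ozone. The groups overlapped on the control diet and did not on the DHA diet. It rose 1.34-fold (log2 fold change 0.43, SE 0.11, adjusted p = 0.0087) and 1.48-fold (log2 fold change 0.57, SE 0.11, adjusted p = 0.000544), and the control-diet call was lost without control-diet air libraries 4 to 6 (adjusted p = 0.193). Gstm5, a mu-class enzyme, was called on the DHA diet. Its level was 6.16 CPM (5.52 to 6.87) in control-diet air, 6.66 CPM (5.85 to 7.22) in control-diet ozone, 5.80 CPM (4.61 to 6.45) in DHA-diet air and 7.73 CPM (5.97 to 8.26) in DHA-diet ozone libraries. Ozone libraries lay above all air libraries in 5 of 6 cases on the DHA diet, and on the control diet the groups overlapped. Its change was 1.29-fold (log2 fold change 0.36, SE 0.10, adjusted p = 0.00815) there and 1.08-fold (adjusted p = 0.498) on the control diet. Gsta3 (1.29-fold, adjusted p = 0.0152), Gstm4 (1.22-fold, adjusted p = 0.0249) and Gstt1 (1.19-fold, adjusted p = 0.0251) rose on the control diet and did not pass on the DHA diet, with 1.19-fold, 1.13-fold and 1.09-fold. Without DHA-diet ozone library 1 all of them passed on the DHA diet as well, Gsta3 with 1.22-fold (adjusted p = 0.0434), Gstm4 with 1.20-fold (adjusted p = 0.00863) and Gstt1 with 1.14-fold (adjusted p = 0.0285), in a fit in which 24 of the 48 and 12% of all genes were higher.

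Gstp1, the pi-class transferase, rose on the DHA diet (1.25-fold, adjusted p = 0.025) and gave 1.19-fold (adjusted p = 0.0986) on the control diet. Its call was lost without DHA-diet air library 2 or DHA-diet ozone library 2 (1.14-fold, adjusted p = 0.0961). The control-diet call of Gsta3 was lost without control-diet air libraries 1 to 3 (adjusted p = 0.11), that of Gstm4 when any 1 of 5 libraries was left out and that of Gstt1 when any 1 of 6 was (highest adjusted p = 0.0652 and 0.076). Gsta4, Gstm1, Gstm2 and Mgst1 were called on neither diet, with log2 fold changes of 0.22, −0.0040, 0.092 and 0.21 on the control diet and 0.13, −0.040, 0.093 and 0.013 on the DHA diet. Gstm1, Gstm2, Gstm4 and Gstm5 lie in 1 region between positions 107803170 and 107952176 of chromosome 3 (coordinates as deposited, mm39). Near-identical copies within the alpha, mu and pi classes can share reads, so how counts divide among them is uncertain.

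The 6 genes with the widest spread between libraries of a group were all known NRF2 targets. The pooled within-group SD on the log2 scale was 0.73 for Slc7a11, 0.60 for Nqo1, 0.47 for Cbr3, 0.33 for Srxn1, 0.31 for Txnrd1 and 0.28 for Gclc. It was 0.086 for Mgst3, 0.069 for Sod2 and 0.060 for Prdx3. The median was 0.14 over the 28 genes called on at least 1 diet and 0.18 over the 20 called on neither. Nqo1 shows the contrast: it changed 1.53-fold on the control diet without passing, while Ugdh passed at 1.09-fold.

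Some libraries were the highest or the lowest of their group for many of the 48. DHA-diet ozone library 2 was the highest of its group for 32 of the 48, where it was for 19.7% of all genes tested. In that library Nqo1 stood at 104 CPM against 16.6 to 37.7 CPM in the other 5, and Cbr3 at 192 CPM against 44.2 to 71.6. Slc7a11 stood at 22.3 CPM against 2.88 to 5.80, and Gclm at 109 CPM, where the next library had 65.3. DHA-diet ozone library 4 was the lowest of its group for 21 of the 48 (12.7% of all genes). Control-diet ozone library 1 was the highest of its group for 31 (26.5% of all genes). Among the air libraries, DHA-diet air library 1 was the highest of its group for 21 (20.05% of all genes) and library 2 the lowest for 32 of the 48 (17.3%). On the control diet, air library 1 was the lowest for 17 (14.7% of all genes) and air library 2 the highest for 22 (17.4%). Not all of the 48 followed these libraries, and in library 2 of the DHA-diet ozone group 4 were the lowest of the group, Gpx3, Prdx3, Prdx4 and Sod3. For Nfe2l2, the level in DHA-diet ozone library 2 was 190.4 CPM, near its group median, and in DHA-diet air library 2, the lowest for Nqo1, it was the highest of its group at 218 CPM.

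**Figure D4:**
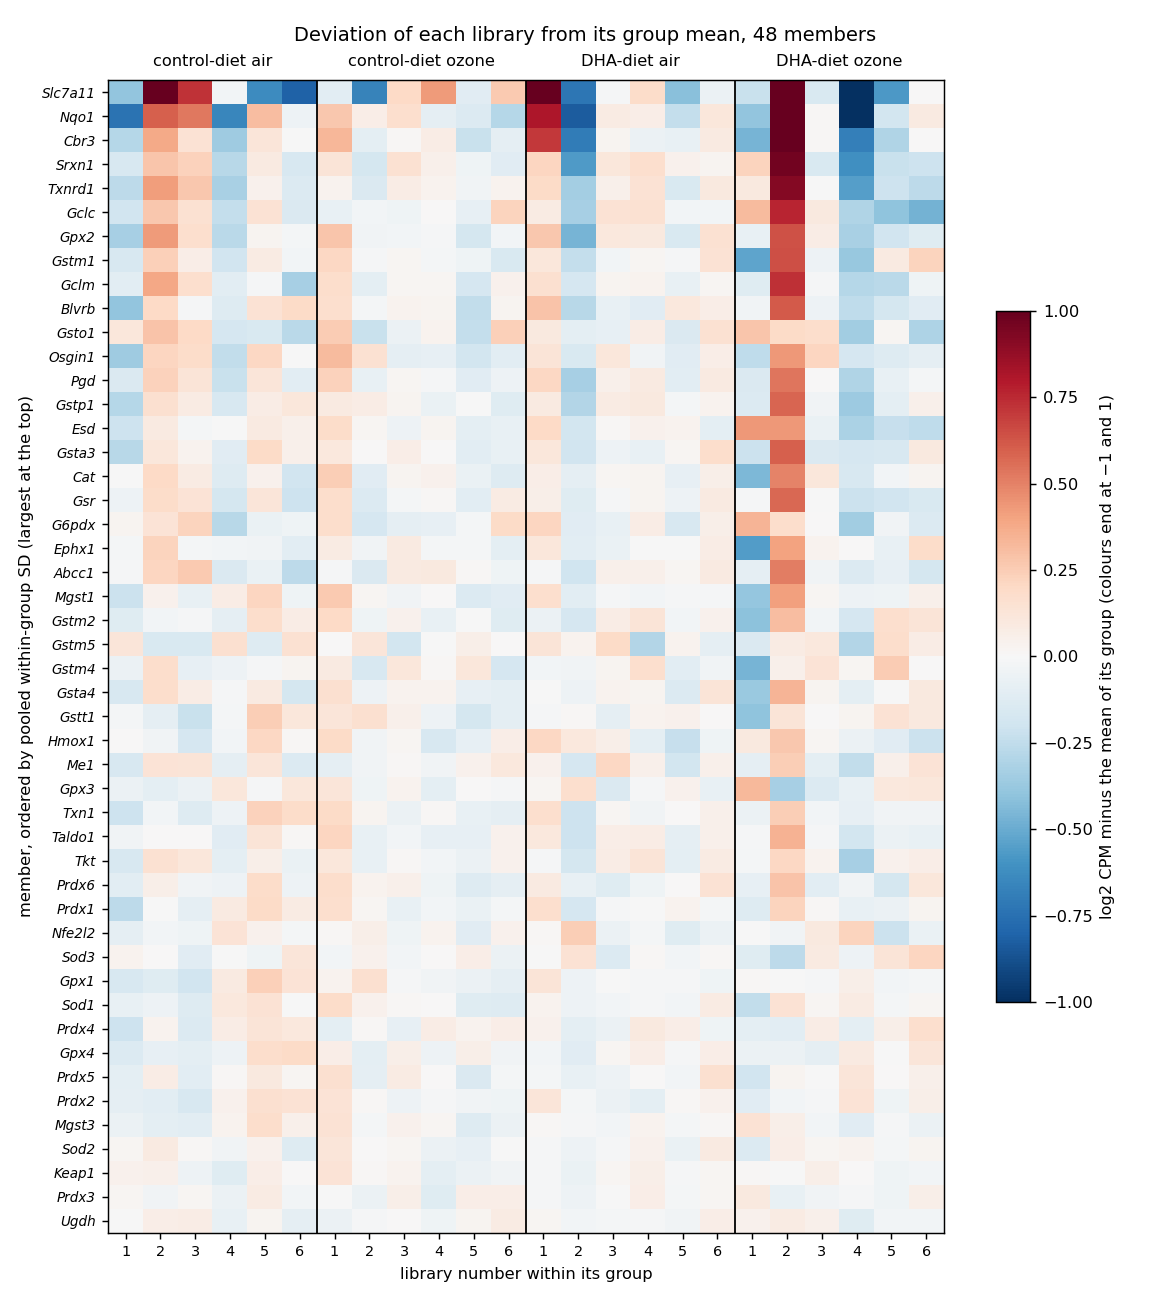
Deviation of each library (columns, by group and library number) from the mean of its group on the log2 CPM scale (colour, red above and blue below, ends at −1 and 1) for the 48 genes (rows, largest within-group SD at the top). DHA-diet ozone library 2 is red across most of the upper rows and DHA-diet ozone library 4 is blue across most of them.

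Leaving out DHA-diet ozone library 2 changed which genes were called. On the DHA diet 12 of the 48 then rose and 1 fell (12.6% of all genes higher and 11% lower), and the median log2 fold change of the 48 went from 0.21 to 0.14. The 12 were Txn1, Gsr, G6pdx, Taldo1, Tkt, Sod2, Gpx3, Prdx3, Gstm5, Gsto1, Mgst3 and Esd, and the 1 that fell was Abcc1 with a log2 fold change of −0.21 (SE 0.073, adjusted p = 0.035). Nqo1 went from 1.45-fold to 1.03-fold, Cbr3 from 1.36-fold to 0.993-fold, Gclm from 1.19-fold to 1.04-fold and Slc7a11 from 1.02-fold to 0.628-fold. None of these 4 passed in either fit. Txnrd1 went from 1.32-fold to 1.11-fold, Gclc from 1.29-fold to 1.13-fold, Gsta3 from 1.19-fold to 1.07-fold and Pgd from 1.18-fold to 1.08-fold, also without passing in either. The calls of Hmox1, Srxn1, Me1, Sod1, Gpx1, Gpx2, Prdx6, Gstp1, Blvrb and Ugdh were lost. In Mgst3 the change moved from 1.46-fold to 1.45-fold, and in Prdx3 from 1.16-fold to 1.17-fold.

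The library is not part of the control-diet comparison, but it enters the estimate of spread that all groups share. Without it 30 of the 48 rose on the control diet (8.62% of all genes) at nearly the same folds, and Gclc (1.32-fold, adjusted p = 0.0154), Gclm (1.21-fold, adjusted p = 0.031), Hmox1 (1.16-fold, adjusted p = 0.0435), Srxn1 (1.31-fold, adjusted p = 0.0268), Pgd (1.19-fold, adjusted p = 0.0331) and Cbr3 (1.39-fold, adjusted p = 0.0399) were among the 9 added, with Gsta4, Gstp1 and Blvrb. A fit of the control-diet groups alone also called 30, and its share over all genes is not given here. Nqo1 stayed short of the threshold on the control diet at 1.53-fold (adjusted p = 0.0667).

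**Figure D5:**
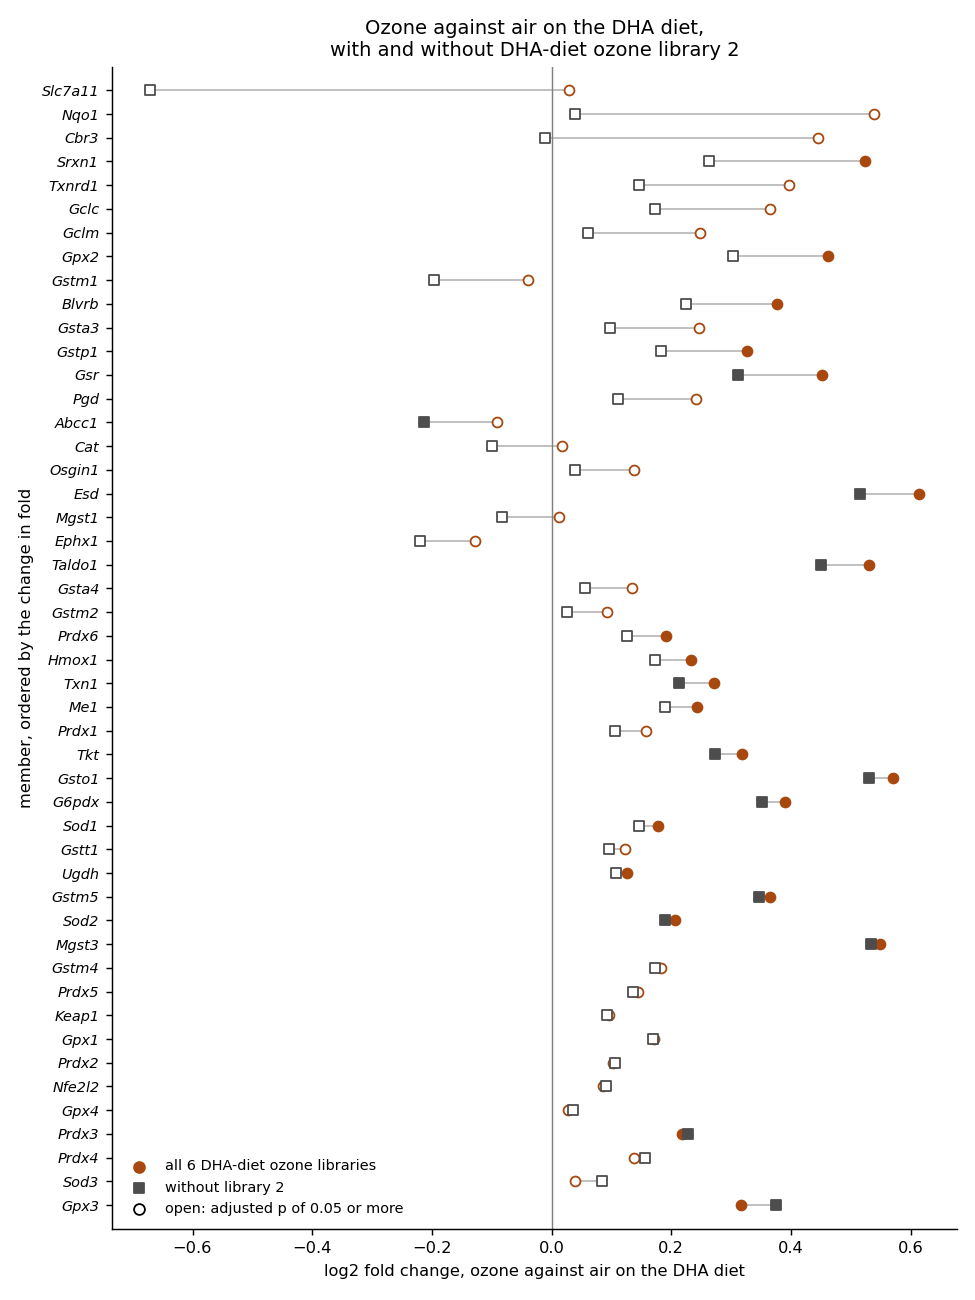
Log2 fold change of ozone against air on the DHA diet (x axis) for the 48 genes with all 6 ozone libraries (circles) and without DHA-diet ozone library 2 (squares), ordered from the largest fall at the top to the largest rise at the bottom. Filled symbols passed an adjusted p of 0.05. Slc7a11, Nqo1 and Cbr3 move furthest, and Mgst3, Sod2 and Prdx3 hardly move.

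Markers of several lung cell types moved with ozone too. The summed level of 5 alveolar macrophage markers was 145 to 232 CPM in control-diet air and 270.1 to 377 CPM in control-diet ozone, and 163 to 228 and 259 to 380.2 CPM on the DHA diet. Chil3 was higher on both diets and Marco on the DHA diet, 1 and 2 of the 5 markers. The median log2 fold change of the 5 was 0.15 on the control diet and 0.26 on the DHA diet. Of the 5, 3 and 4 were above 0, and a sum weighs the most abundant marker most. Among those below 0, Ear2 had log2 fold changes of −0.24 and −0.29, which did not pass. The 4 markers of dividing cells were all higher on both diets, with sums of 29.9 to 45 and 68 to 105 CPM on the control diet and 33 to 47.2 and 50.8 to 205 CPM on the DHA diet. Of the 5 neutrophil markers 1 was higher on the control diet and 5 on the DHA diet. Their sum on the DHA diet was 39.3 to 71.7 CPM in air and 63.8 to 315 CPM in ozone. DHA-diet ozone libraries 1 and 2 stood at 246 and 315 CPM, and libraries 3 to 6 at 63.8 to 93.4 CPM, near the air range. The 4 alveolar type 2 markers summed to 18839.6 to 29539 CPM in control-diet air and 26576 to 28157 CPM in control-diet ozone. With ozone 3 of them were higher on the control diet and 1 on the DHA diet. Control-diet air libraries 1 to 4 stood at 18839.6 to 22025 CPM, and libraries 5 and 6 at 29539 and 26302 CPM. The DHA-diet sums were 27828 to 30580 CPM with air and 28184.5 to 32219 CPM with ozone. Between the diets in filtered air, 3 of the 4 were higher on the DHA diet, against 0.724% of all genes. The same control-diet air libraries serve both comparisons. The 4 club cell markers summed to 92358 to 126834 and 98689 to 143194 CPM on the control diet and to 91213 to 106127 and 59951 to 117799 CPM on the DHA diet, with 1 of 4 higher on each. The part of these shifts in the changes of the 48 genes was not tested, and in whole lung more cells of a type and more RNA per cell cannot be told apart.

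In filtered air diet moved 0 of the 48 past the threshold, where 0.724% of all genes were higher and 0.427% lower on the DHA diet. The smallest p-values were those of Nfe2l2, 1.13-fold (log2 fold change 0.17, SE 0.062, adjusted p = 0.141), Prdx5, 0.900-fold (log2 fold change −0.15, SE 0.055, adjusted p = 0.147), and Gpx1, 1.12-fold (log2 fold change 0.16, SE 0.061, adjusted p = 0.168). At an unadjusted p under 0.05 there were 4 of the 48 and 2798 of all genes (17.3%), and 0 of the 48 were called with DESeq2 or limma-voom. Log2 differences ran from −0.19 to 0.42, and the 95% interval lay within ±0.5 for 44 of the 48. This comparison uses the control-diet air libraries that also serve the ozone comparison. Without control-diet air libraries 4 to 6, a choice made after the data were seen, Gpx1 and Prdx4 were higher and Gsto1 lower on the DHA diet (adjusted p = 0.00108, 0.04 and 0.0475), with 3.98% of all genes higher and 5.45% lower.

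After ozone no difference between the diets passed the test in any of the 48, and 0% of all genes were called. At an unadjusted p under 0.05 there were 3 of the 48 and 2260 of all genes, and DESeq2 called 0 of the 48, and of all genes 41 higher and 39 lower. The 3 were Gpx3, 1.16-fold (log2 fold change 0.22, SE 0.076, adjusted p = 0.218), Mgst3, 1.10-fold (log2 fold change 0.14, SE 0.051, adjusted p = 0.232), and Esd, 1.20-fold (log2 fold change 0.27, SE 0.10, adjusted p = 0.268). Without DHA-diet ozone library 2 Gpx3 was higher on the DHA diet, 1.21-fold (adjusted p = 0.0484), as were 0.437% of all genes, with 0.45% lower. The 95% interval of the log2 difference lay within ±0.5 for 43 of the 48, and the widest, that of Slc7a11, ran from −0.79 to 0.86.

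The interaction, which asks whether ozone moved a gene by a different amount on the DHA diet, passed for 0 of the 48 and for 0% of all genes. At an unadjusted p under 0.05 there were 0 of the 48 and 988 of all genes, and DESeq2 called 0 of the 48, and of all genes 2 higher and 3 lower. The smallest p-values belonged to Taldo1 with a log2 fold change of 0.19 (SE 0.10, adjusted p = 0.85), Gstm5 with a log2 fold change of 0.26 (SE 0.14, adjusted p = 0.855) and Gpx3 with a log2 fold change of 0.19 (SE 0.11, adjusted p = 0.877), positive values meaning a larger rise on the DHA diet. Without DHA-diet ozone library 2 the inducible targets had negative values that did not pass, with Slc7a11 at −1.08 (SE 0.43), Nqo1 at −0.57 (SE 0.33) and Cbr3 at −0.49 (SE 0.23). With all libraries these were −0.39, −0.076 and −0.041, and the sign of the values for Nqo1 and Cbr3 changed when other single libraries were left out.

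Beyond the 48, 81 further genes of the same pathways, listed with earlier results of these data known, were followed, of which 79 were tested. On the control diet 14 rose (17.7%, against 8.93% of all genes) and 0 fell. With the DHA diet 20 rose (25.3%, against 12.7%) and 4 fell (5.06%, against 11%). Those with the smallest adjusted p on the control diet were Glrx (1.55-fold, adjusted p = 2.09e-05), a glutaredoxin, Ptgr1 (1.39-fold, adjusted p = 3.29e-05), a reductase of prostaglandins and lipid aldehydes, Park7 (1.17-fold, adjusted p = 0.000402), which encodes DJ-1, Blvra (1.21-fold, adjusted p = 0.00229), Gstt3 (1.17-fold, adjusted p = 0.0129) and Gstk1 (1.20-fold, adjusted p = 0.0129). On the DHA diet they were Ptgr1 (1.49-fold, adjusted p = 1.70e-06), Park7 (1.21-fold, adjusted p = 3.50e-05), Glrx (1.41-fold, adjusted p = 0.00011), Msrb1 (1.32-fold, adjusted p = 0.000196), a methionine sulfoxide reductase, Txn2 (1.17-fold, adjusted p = 0.00144), mitochondrial thioredoxin, and Hmox2 (1.15-fold, adjusted p = 0.00289). The 4 that fell on the DHA diet, named after their values were seen, were Mafg, a small MAF partner of NRF2 (0.867-fold, adjusted p = 0.0419), Abcc5 (0.889-fold, adjusted p = 0.0134), Sesn1 (0.878-fold, adjusted p = 0.0261) and Selenop, the selenium carrier of plasma (0.859-fold, adjusted p = 0.0121). The median log2 fold change of the 79 was 0.099 on the control diet and 0.11 on the DHA diet, below the 0.25 and 0.21 of the 48.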

How the data were processed

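Lung RNA of 24 libraries, 6 in each of 4 groups, was sequenced. RNA was extracted with the RNeasy Mini Kit and libraries were made by Genewiz, per the labels. The deposited table holds raw counts per gene made by the authors. Partek, STAR, HTSeq and build mm39 are named, without their roles, per the submitters' processing notes. For tool versions, annotation and strandedness nothing was given in the sources used here. Counts of Scgb1a1 stand in the deposited table rounded to 3 significant digits.

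Counts were tested with edgeR 4.0.16 and limma 3.58.1 in R 4.3.3: TMM scaling, a filter by group (minimum count 10, minimum total 15), 1 mean per group over all 24 libraries, 20 residual degrees of freedom, the quasi-likelihood test and Benjamini-Hochberg adjustment over 16153 genes, with a threshold of 0.05. SE is the log2 fold change divided by the square root of F. In 5 comparisons, ozone was set against air within either diet, the diets were compared in air and after ozone, and the interaction was tested. Alternatives included DESeq2 1.42.0, limma-voom, other scalings and filters, a replicate block, and leaving out each library. On data simulated for the control-diet ozone comparison over 16153 genes, 54% of genes changed 1.25-fold and 90% of those changed 1.5-fold were called. For the interaction the shares called were 24% and 82%. For each comparison 50 genes were raised at each of 1.25, 1.5, 2 and 4-fold, and all others were left unchanged. The raised genes were well counted, and no simulated library stood apart as a whole. The real control-diet comparison called 2713 genes and the real interaction 0, and the adjusted p depends on how many genes change. The shares therefore hold for the simulated setting and are not the power of these tests.

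The members and the lists of further genes were chosen with earlier results of these data known. Genes given with full values were 13 fixed by name and the 12 others with the smallest adjusted p. Leaving out blocks of libraries was chosen after seeing the data.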

Additional observations from a re-analysis of the deposited data

Results flagged for a closer look

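In the 4 groups of 6 libraries, a single library of 14 gene and group combinations lay far from the others, judged by its gap to the nearest library over the group's range against Dixon's 95% critical value. Of 100 combinations from 25 genes, chance gives about 1 in 20. That rate is for independent combinations, and these are not, because many of the genes moved together by library. Of the 14, 8 lay in DHA-diet ozone library 2. In that library Nqo1 stood at 104 CPM (next library 37.7), Txnrd1 at 391 CPM (221), Slc7a11 at 22.3 CPM (5.80), Gclm at 109 CPM (65.3), Gpx2 at 138 CPM (93.5), Gsr at 169 CPM (113), Taldo1 at 319 CPM (249) and Txn1 at 458 CPM (378).

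The other 6 lay in 4 libraries of DHA-diet air and control-diet ozone. In DHA-diet air library 2 Nfe2l2 was high at 218 CPM (next 185) and Srxn1 low at 30.6 CPM (next 46.2). In DHA-diet air library 1 Slc7a11 stood at 13.7 CPM (7.59) and Gpx1 at 510.0 CPM (466). Gpx2 stood at 116 CPM (95.3) in control-diet ozone library 1, and Gclc at 400.1 CPM (345) in control-diet ozone library 6.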

How the results depend on the processing

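With ozone on the control diet, 12 of the 48 genes were higher at an adjusted p under 0.01, 12 without control-diet air libraries 1 to 3 (5.19% of all genes), and 33 without DHA-diet ozone libraries 1 and 2 (10.2%), against 21 (8.93%). With ozone on the DHA diet 12 were higher at an adjusted p under 0.01, against 22. Leaving out 1 library at a time gave 16 to 30 higher on the control diet, 12 to 24 higher and 0 to 1 lower on the DHA diet, and 0 to 1 higher on the DHA diet after ozone. The 12 and the 1 lower came without DHA-diet ozone library 2. In air, leaving out control-diet air libraries 4 to 6 gave 2 higher and 1 lower on the DHA diet, against 0. For the counts at an adjusted p under 0.01 the shares over all genes are not given here. Among runs that left out 1 library, they are given only for DHA-diet ozone libraries 1 and 2. The cause of these shifts was not tested. No called change reversed its direction in any alternative run.

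DESeq2 called 22 and 23, and limma-voom 24 and 27, with ozone on the control and DHA diets. With the replicate block the counts were 20 and 18. The replicate numbers did not pair the samples: same-numbered libraries had a mean correlation of −0.0170, others 0.00343, and 0 of 24 were closest to their own number. Control-diet air libraries 1 to 3 and 4 to 6 differed in ribosomal protein transcripts (mean log2 CPM 5.98 to 6.05 and 6.38 to 6.43). Taldo1, Tkt, Sod2, Prdx3, Mgst3 and Esd kept their calls on both diets in every alternative at the 0.05 threshold.

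Among genes that did not pass, some log2 fold changes changed sign, all short of the threshold. On the control diet, leaving out control-diet air libraries 4 to 6 gave −0.025 for Slc7a11, −0.028 for Cat, 0.075 for Gpx4 and −0.044 for Ephx1, and leaving out libraries 1 to 3 gave −0.0061 for Sod3, −0.019 for Prdx2, −0.0066 for Prdx5, 0.041 for Gstm1 and 0.081 for Abcc1. With library totals Sod3 stood at −0.014 and Ephx1 at −0.016, and with the replicate block Gstm1 at 0.0081. Leaving out 1 library gave −0.054 to 0.0072 for Gpx4, −0.049 to 0.041 for Gstm1 and −0.0041 to 0.066 for Ephx1. On the DHA diet Slc7a11 stood at −0.16 with the replicate block and −0.36 with limma-voom, and Mgst1 at −0.0028 with library totals. Without DHA-diet ozone libraries 1 and 2, Slc7a11, Cat and Mgst1 stood at −0.70, −0.016 and −0.0081. Leaving out 1 library there gave −0.67 to 0.32 for Slc7a11, −0.10 to 0.095 for Cat, −0.010 to 0.084 for Sod3, −0.0026 to 0.045 for Gpx4, −0.20 to 0.052 for Gstm1, −0.083 to 0.081 for Mgst1 and −0.010 to 0.62 for Cbr3. For the interaction, leaving out control-diet air libraries 4 to 6 gave 0.055 for Slc7a11, 0.086 for Nqo1 and 0.052 for Cbr3, and leaving out 1 library gave −0.57 to 0.14 for Nqo1 and −0.49 to 0.14 for Cbr3.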
